A study of Mus musculus with 4 samples.

Results

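The circular RNAs (circRNAs) described here come from 5 host genes of cardiac calcium handling: Ryr2, Cacna1c, Atp2a2, Asph and Akap7. They were selected by host name, as every listed back-splice junction whose host label contains one of these symbols. This gave 19 of the 1046 circRNAs in the series and 232 of its 7303 back-splice reads. RNA sequencing of total RNA was done on heart tissue of C57BL/6 mice, 2 libraries after sham surgery (sham 1 and sham 2) and 2 after myocardial injury by ischemia and reperfusion (I/R 3, I/R 4), in which a coronary vessel is closed for a time and then reopened. Values given in library order follow sham 1, sham 2, I/R 3, I/R 4. Age, sex, the duration of ischemia and reperfusion, and whether each library is 1 animal are not given in the sources used here, so the p-values reflect the spread among these 4 libraries only, which may be technical.

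In a heart muscle cell each beat begins when calcium enters through the L-type channel, whose pore is encoded by Cacna1c. This calcium opens the ryanodine receptor encoded by Ryr2, which releases the larger store held in the sarcoplasmic reticulum. The SERCA2 pump encoded by Atp2a2 returns calcium to the store, which lets the muscle relax. Asph encodes junctin, which binds the ryanodine receptor in the junctional reticulum, as well as the enzyme aspartyl/asparaginyl beta-hydroxylase and other proteins. Akap7 encodes anchors that hold protein kinase A near its membrane targets, among them the L-type channel. A circRNA forms when a downstream splice donor is joined back to an upstream acceptor, so a read across that joint (a back-splice or junction read) shows exons in reversed order.

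Depth was low, from 1627 to 1982 back-splice reads per library, and 1 read was worth 505 to 615 CPM (counts of junction reads scaled to the same total). The smallest listed count was 2 reads, so a circRNA listed at 0 in a library was not shown to be absent there. It may have had 1 read, or more if other filters were used. Of 14 heart muscle marker genes fixed for a check of the tissue, 7 hosted a listed circRNA, with 170 to 378 reads per library, and Pln, Actn2, Tnni3, Myh7, Ldb3, Myom2 and Mybpc3 were listed at 0. Endothelial markers had circRNAs at 2 of 10 genes (6 to 10 reads per library) and smooth muscle and pericyte markers at 1 of 8 (0 to 3 reads). All 12 leukocyte markers (Ptprc and Csf1r among them) and all 9 fibroblast markers (Col1a1 and Pdgfra among them) were at 0. These markers were read through their circRNAs alone, which leaves most expressed genes unseen.

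The authors' coordinates are in build mm9, per the submitters' processing notes, while the gene models used were GENCODE M21, which are on a later build. Each exonic circRNA was therefore placed by its length alone, by searching the host's models for an exon start and exon end exactly as far apart as the ends of the circRNA. All 18 exonic circRNAs of the 5 hosts matched at exactly 1 place, as did 868 of the 946 exonic circRNAs with 1 host in the series (91.8%). The remaining circRNA, labelled intronic by the authors, lies in Cacna1c. The 18 circles joined a median of 4 exons into 536 bases, beside 3 exons and 478 bases over the 868. None began at exon 1, against 0.2% of the 868, and 5 of 18 began at exon 2, against 38.1%. Spliced length was a multiple of 3 in 9 of 18 and in 38.5% of the 868. All 5 hosts lie on the minus strand, and 12 of the 19 circRNAs share a splice site with another circle of the same host, so members are not independent of each other.

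**Figure D1:**
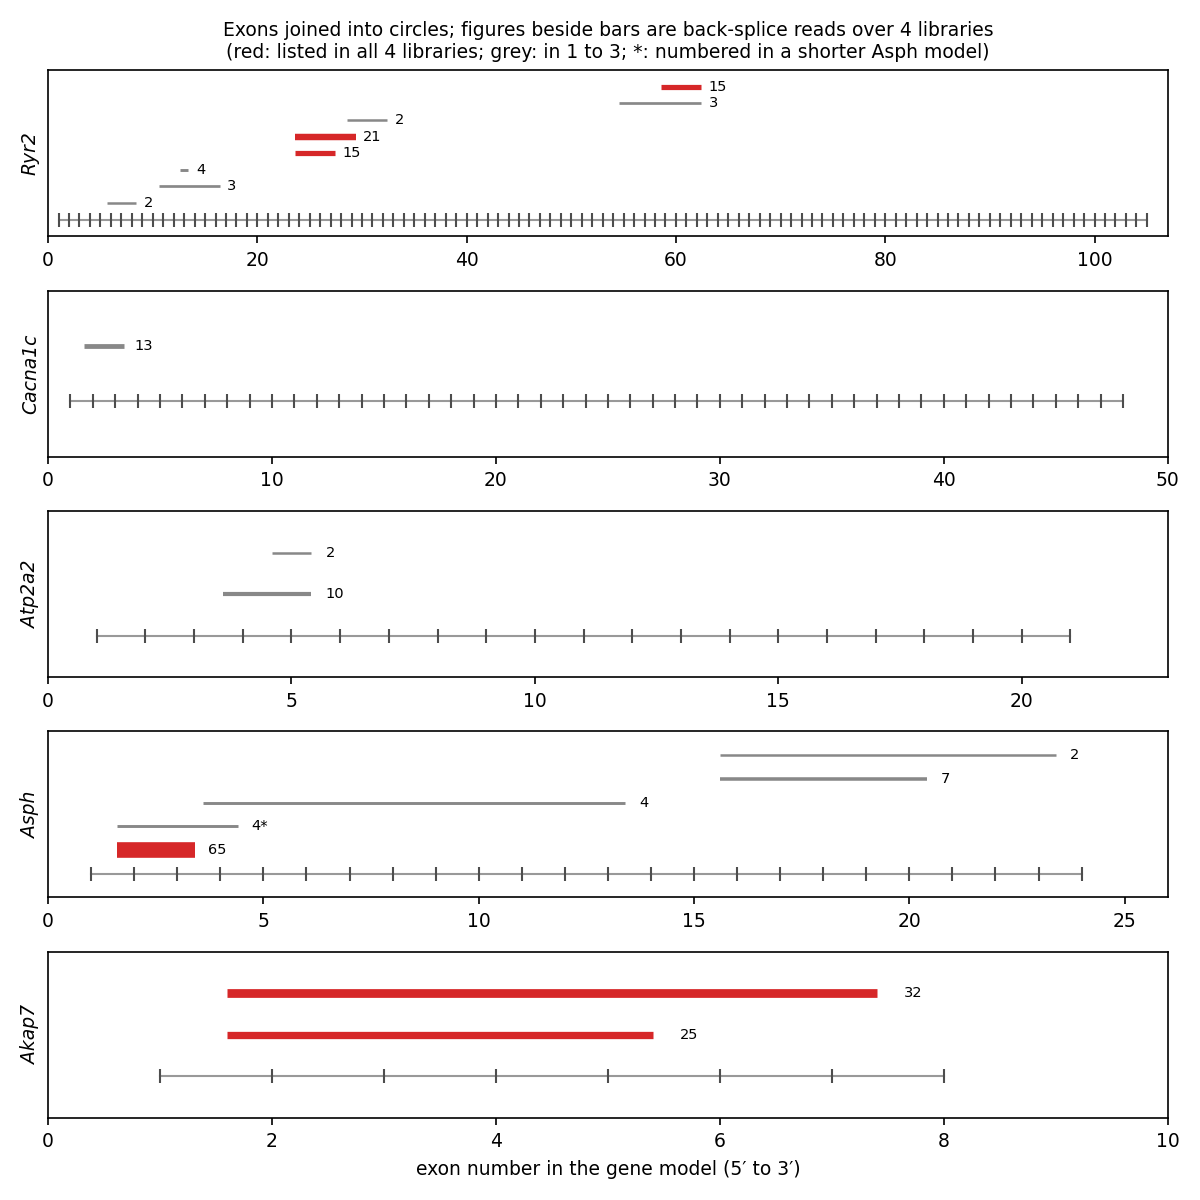
Exons joined into each circle (horizontal bars; thickness grows with reads) along the exon numbers of 1 gene model per host, with back-splice reads over the 4 libraries beside each bar and the circle marked * numbered in a shorter Asph model. Ryr2 circles are spread over the first 62 of 105 exons, the 65 reads of the leading Asph circle join exons 2 and 3, and both Akap7 circles start at exon 2.

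The joints of 6 of the 8 circles with at least 10 reads are shown because they are what a junction read has to cross. Each line reads 5′ to 3′ in the sense of the mRNA, with the last 20 bases of the closing exon in lower case and the first 20 bases of the opening exon in capitals, from the GENCODE M21 transcripts.
Ryr2 exons 24 to 29: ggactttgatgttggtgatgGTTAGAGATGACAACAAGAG
Ryr2 exons 24 to 27: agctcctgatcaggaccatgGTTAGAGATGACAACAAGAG
Ryr2 exons 59 to 62: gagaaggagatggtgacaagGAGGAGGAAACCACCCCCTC
Cacna1c exons 2 to 3: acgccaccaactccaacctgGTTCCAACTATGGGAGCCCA
Atp2a2 exons 4 to 5: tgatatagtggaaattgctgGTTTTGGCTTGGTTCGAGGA
Asph exons 2 to 3: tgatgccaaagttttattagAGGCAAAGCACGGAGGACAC
The first pair of Ryr2 joints have the same 20 capital bases, since both open at exon 24, and differ in the donor that closes the circle.

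Over all 5 hosts sham 1 held 67 back-splice reads and sham 2 held 54, while I/R 3 held 44 and I/R 4 held 67. These were 3.55% (95% Clopper-Pearson interval 2.76 to 4.48), 3.32% (2.50 to 4.31), 2.44% (1.78 to 3.26) and 3.38% (2.63 to 4.27) of all back-splice reads, in that order. Such intervals hold for counting error alone and leave out the spread between libraries. They may be too narrow even so, because PCR copies were not separated by molecular identifiers. I/R 3 was lowest, I/R 4 lay within the sham values, and sham averaged 3.43 ± 0.16% against 2.91 ± 0.67% after I/R (SD, n = 2). With the reads of the titin gene Ttn, which were 65 to 277 per library, left out of the total, the shares were 3.82%, 3.46%, 2.71% and 3.93% in library order. I/R 4 then lay above both sham libraries, and the difference of the means (I/R minus sham) went from -0.52 to -0.32 percentage points. In bulk tissue, fewer heart muscle cells and less of an RNA per cell cannot be told apart. The libraries listed 14, 10, 9 and 9 of the 19 circRNAs in the same order. With at least 3 reads the numbers were 11, 8, 5 and 7.

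Of the 19 circRNAs, 6 (31.6%) were listed in all 4 libraries and held 173 of the 232 reads. Over the series 9.75% of circRNAs were listed in all 4. Another 10 (52.6%, beside 64.4% of the series) were listed in 1 library, with 2 to 4 reads each and 29 reads in all, 5 of them in sham 1, 2 in sham 2, 2 in I/R 3 and 1 in I/R 4. The reads of each of these 10 came from at least 2 sequencing lanes, and all 232 read names were distinct. PCR copies of 1 molecule can also have distinct names and lie in several lanes, so neither fact shows separate molecules. A circBase identifier, which marks circRNAs of an earlier catalogue, was given for 11 of 19, beside 67.8% of all circRNAs.

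**Figure D2:**
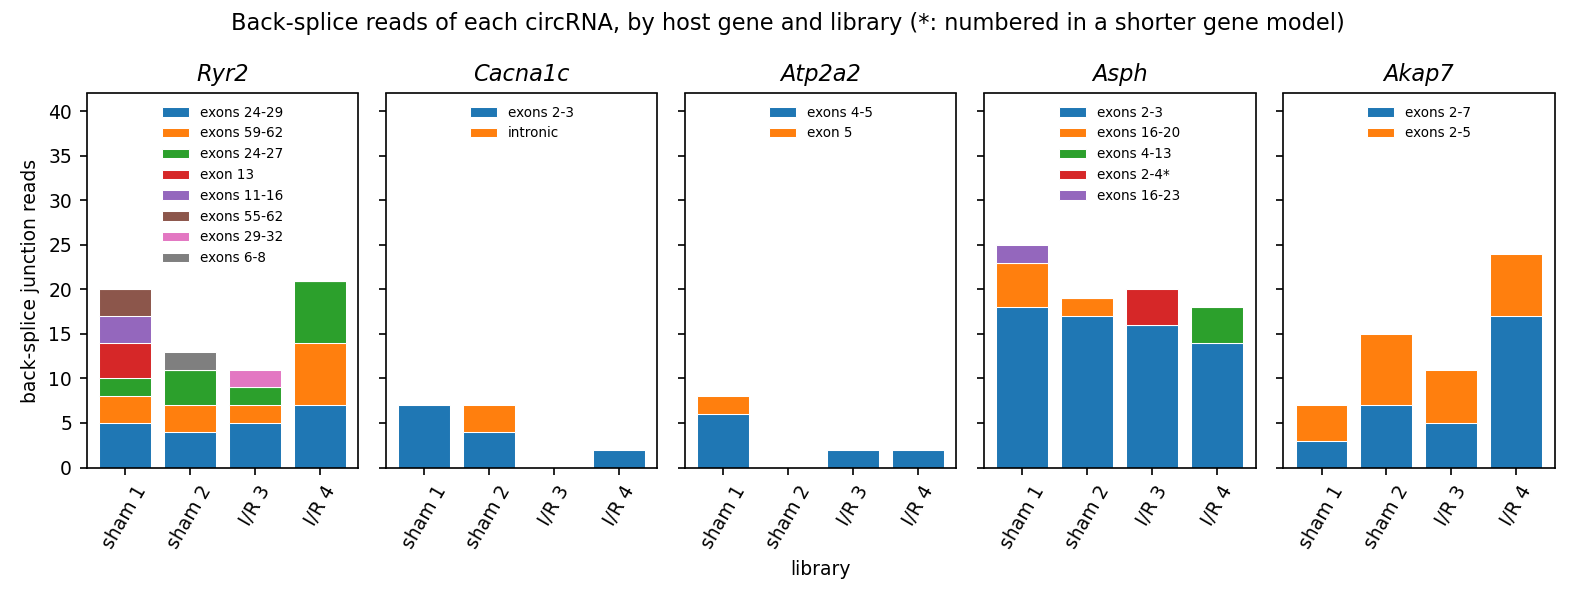
Back-splice junction reads (vertical axis) in each of the 4 libraries, stacked by circRNA within each host gene. Asph kept 18 to 25 reads in every library, Cacna1c had 7 and 7 in sham against 0 and 2 in I/R, and Akap7 reached 24 in I/R 4.

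Ryr2 had the most varied circles, 8 in all with 65 reads, which placed it 11th of 709 hosts. The circle of exons 24 to 29 (chr13:11851938-11877408, 880 bases after splicing) had 5 reads in sham 1, 4 in sham 2, 5 in I/R 3 and 7 in I/R 4. Sham averaged 2552 ± 132 CPM and I/R 3152 ± 538 CPM (SD, n = 2), and in CPM both I/R libraries exceeded both sham libraries. Sham 1 and I/R 3 had 5 reads each, at 2646 and 2772 CPM, so they differed through the library totals alone. The fitted log2 fold change (I/R over sham) was 0.42 with a standard error (SE) of 0.42, and it did not pass (edgeR's quasi-likelihood test, adjusted p = 0.920). It was 0.10 when I/R 4 was left out. The SEs given here come from the F statistic and can lie below counting error, as the SE of this circle does. The circle of exons 24 to 27 (chr13:11862119-11877408, 496 bases) opens at the same exon. It was read 2 and 4 times in the sham pair and 2 and 7 times in the I/R pair, and that of exons 59 to 62 (chr13:11773233-11780280, 427 bases) 3 and 3, then 2 and 7 times. In both, I/R 4 was the highest library while I/R 3 lay below sham 2, so the groups overlapped, and their fitted log2 fold changes of 0.59 (SE 0.84) and 0.58 (SE 0.79) did not pass (edgeR adjusted p = 0.920 for each).

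Of reads at the circles opening at Ryr2 exon 24, the longer form took 5 of 7, 4 of 8, 5 of 7 and 7 of 14 in library order. The choice of closing donor, at exon 29 or exon 27, thus ranged from 50.0% to 71.4% long in each group. The 5 other Ryr2 circles were each seen in 1 library. Exon 13 alone, 165 bases, had 4 reads in sham 1, exons 11 to 16 had 3 and exons 55 to 62 had 3 there. Exons 6 to 8 had 2 reads in sham 2 and exons 29 to 32 had 2 in I/R 3. In sham 1 the 3 recurrent circles thus made up 10 of 20 Ryr2 reads, and in I/R 4 all 21. Summed over the gene, reads were 20, 13, 11 and 21 (log2 fold change -0.04, SE 0.48, edgeR adjusted p = 0.977), and the groups overlapped.

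Cacna1c had 2 circRNAs with 16 reads. The exonic circle joins exons 2 and 3 (chr6:119002619-119007533, 428 bases) and was read 7 times in sham 1 and 4 times in sham 2, was not listed in I/R 3 and had 2 reads in I/R 4. Both I/R libraries lay below both sham libraries, at 505 ± 714 CPM against 3081 ± 880 CPM (SD, n = 2). The log2 fold change of -2.31 (SE 1.17) did not pass (edgeR adjusted p = 0.920), and was -1.51 without I/R 3 and -5.51 without I/R 4. The intronic circRNA (chr6:118952595-118955099, 2505 bp between its ends) was listed in sham 2 alone, with 3 reads. Summed over the gene, reads were 7, 7, 0 and 2, or 4003 ± 423 CPM against 505 ± 714 CPM (SD, n = 2), a log2 fold change of -2.66 (SE 1.02). Its unadjusted p of 0.0453 was the smallest of the 5 hosts and its adjusted p was 0.843 (edgeR). Of the 154 hosts tested, none (0%) passed after adjustment, and 8 (5.19%) lay under 0.05 before it. The 1 such host among these 5 rests on 16 reads. Gene and exonic circle alike met the minimum of 10 reads through the sham libraries, where they are high. The I/R libraries alone would not have reached it, so this p is not taken as support for a change. The sum without I/R 3 was fitted at -1.74 and without I/R 4 at -5.82, the latter against 1 library where the gene was not listed, so it sets no limit to the fold. Without either sham library the gene had too few reads to be tested.

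Atp2a2 had the fewest reads, 12, at 2 circles that close at the same donor of exon 5. The circle of exons 4 and 5 (chr5:122939247-122941794) had 6 reads in sham 1, none listed in sham 2, and 2 each in I/R 3 and I/R 4. Exon 5 alone (chr5:122939247-122939385) had 2 reads in sham 1. The sham libraries stood at either end of the range and enclosed both I/R libraries. The fitted log2 fold change of the longer circle was -0.56 with an SE of 1.53 (edgeR adjusted p = 0.922), and in limma-voom it was 0.62, so the sign depended on the tool. Without sham 2 it was -1.64, and with any other library left out the circle had too few reads to be tested. The host sum went from -0.94 to -1.91 without sham 2, but was -0.94 without I/R 3 and -0.89 without I/R 4. Without sham 1, which held most of its reads, the host could not be tested. The whole 244-base circle is shown because its closing exon, in lower case, is the same 139 bases that make up the shorter circle.
Atp2a2 exons 4 to 5: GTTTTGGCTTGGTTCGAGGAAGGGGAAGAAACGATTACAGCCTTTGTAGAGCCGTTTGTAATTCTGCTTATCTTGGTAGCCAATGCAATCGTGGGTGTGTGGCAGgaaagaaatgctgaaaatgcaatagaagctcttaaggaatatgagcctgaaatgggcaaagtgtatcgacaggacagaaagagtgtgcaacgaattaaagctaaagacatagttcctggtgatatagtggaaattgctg

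Asph carried the most reads of the 5 hosts, 82 at 5 circles, 7th of 709 hosts. Of these, 65 (79.3%) lay at the circle of exons 2 and 3 (chr4:9563048-9566494), the 12th most abundant of the 1046 circRNAs, which has no circBase identifier. It was read 18 times in sham 1, 17 in sham 2, 16 in I/R 3 and 14 in I/R 4. Both I/R values were below both sham values, but by little, at 7966 ± 1277 CPM against 9986 ± 654 CPM (SD, n = 2). The log2 fold change of -0.21 (SE 0.32) did not pass (edgeR adjusted p = 0.920). The whole circle is shown for its abundance, exon 2 in capitals and exon 3 in lower case. It has 219 bases in the model used, and up to 264 in other matching models.
Asph exons 2 to 3: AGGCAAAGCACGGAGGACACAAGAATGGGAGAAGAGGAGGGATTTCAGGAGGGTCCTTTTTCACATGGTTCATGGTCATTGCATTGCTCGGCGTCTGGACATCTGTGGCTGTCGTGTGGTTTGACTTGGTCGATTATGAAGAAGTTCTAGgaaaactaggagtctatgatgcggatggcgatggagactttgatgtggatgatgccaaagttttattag

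The other 4 Asph circles were each listed in 1 or 2 libraries. Exons 16 to 20 (chr4:9435774-9459212, 615 bases) had 5 and 2 reads in the sham libraries and none listed in I/R. Exons 16 to 23, which open at the same exon, had 2 reads in sham 1. Exons 4 to 13 had 4 reads in I/R 4. A circle opening at exon 2 and closing at an exon of a shorter model (exon 4 of 14) had 4 reads in I/R 3. Both circles from exon 16 were thus listed in sham alone, and both of the others in I/R alone. All but exons 16 to 20 were listed in 1 library, which places them in 1 group by definition. Over the series 64.4% of circRNAs were listed in 1 library. The share listed in both sham libraries and in neither I/R library, as exons 16 to 20 were, was not counted over the series. That listing is therefore a description only. All 4 of these Asph circles had under 10 reads and were not tested. Summed over the gene, reads were 25, 19, 20 and 18 (log2 fold change -0.20, SE 0.38, edgeR adjusted p = 0.922). In CPM both I/R values lay below both sham values, although I/R 3 had 20 reads against 19 in sham 2.

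Akap7 had 57 reads at 2 circles that open at exon 2 and close at exon 7 (chr10:24940417-25009536, 840 bases) or exon 5 (chr10:24987114-25009536, 579 bases). The longer circle was read 3 times in sham 1, 7 in sham 2, 5 in I/R 3 and 17 in I/R 4. I/R 3 lay between the sham libraries and I/R 4 above all. Sham averaged 2945 ± 1920 CPM and I/R 5674 ± 4105 CPM (SD, n = 2). The log2 fold change was 1.14 (SE 0.79, edgeR adjusted p = 0.920), the highest of the 8 circles tested, and -0.043 without I/R 4. The 17 reads of I/R 4 came from 4 lanes with 5, 5, 4 and 3 reads. The shorter circle had 4, 8, 6 and 7 reads and was fitted at 0.13 (SE 0.44, edgeR adjusted p = 0.933), or at -0.002 without TMM factors (the scaling used in the main test).

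The longer form took 42.9% (95% Clopper-Pearson interval 9.9 to 81.6), 46.7% (21.3 to 73.4), 45.5% (16.7 to 76.6) and 70.8% (48.9 to 87.4) of Akap7 reads in library order. The first 3 libraries were nearly level, and the interval of I/R 4 overlapped theirs. Summed reads were 7, 15, 11 and 24 (log2 fold change 0.66, SE 0.59, edgeR adjusted p = 0.922), with 0.05 as the value without I/R 4 and 1.33 without sham 2. Sham 2 was above I/R 3, so the groups overlapped.

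Across the series the test of back-splice reads covered 158 circRNAs with at least 10 reads, of which none (0%) passed an adjusted p of 0.05 and 9 (5.70%) had an unadjusted p under 0.05. DESeq2 and limma-voom made 0 calls as well. The 8 members tested hold 196 of the 232 reads, and 0 of the 8 passed or had an unadjusted p under 0.05. The fitted change was above 0 in 5 of 8, against 57% of all tested, with a median of 0.28 against 0.06. Both I/R libraries lay above both sham libraries at 1 of 8 (17.7% of all) and below them at 2 of 8 (20.9% of all). Among hosts, the change was above 0 in 1 of 5, Akap7, against 48.7% of the 154 tested. None of the 5 had both I/R values above both sham values (18.2% of all), and 2, Cacna1c and Asph, had both below (20.8% of all). For circRNAs and hosts alike, libraries were compared in CPM without the TMM factors of the fits. Dividing CPM by those factors put I/R 3 below sham 1 at the Ryr2 circle counted as higher (CPM 2771.6 and 2645.5, factors 1.0023 and 0.9441). It put I/R 3 above sham 2 at the Asph host sum (CPM 11086.5 and 11677.9, factors 1.0011 and 1.1003). Both then overlapped between groups, while the Cacna1c and Asph circles and the Cacna1c sum stayed lower. The series-wide shares were not recounted with the factors. The shares among members rest on few of them, with 12 to 82 reads per host.

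**Figure D3:**
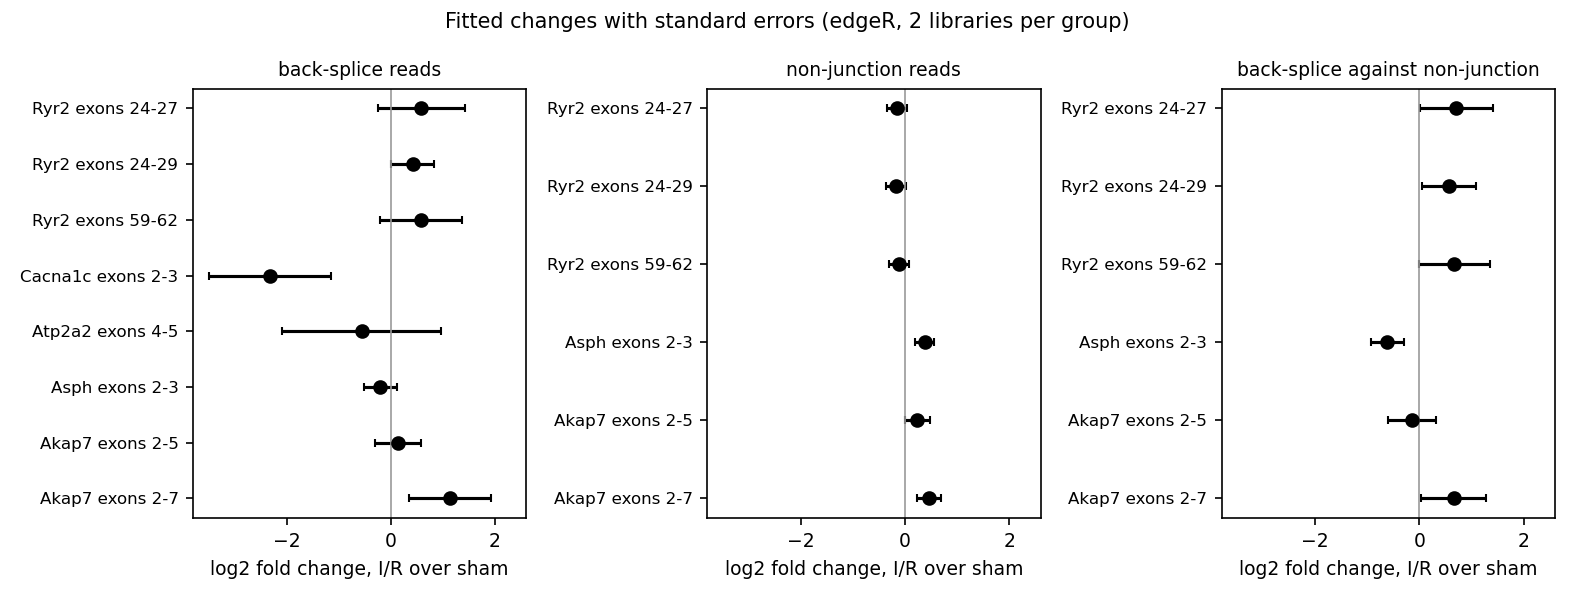
Fitted log2 fold changes (I/R over sham, horizontal axis) with standard errors as bars for back-splice reads, non-junction reads and their contrast, edgeR with 2 libraries per group. Cacna1c at -2.31 and Akap7 exons 2 to 7 at 1.14 lie farthest from 0 in back-splice reads, with SEs of 1.17 and 0.79. The bars can be shorter than counting error alone would make them.

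The circles differed widely in their share of the reads at their splice sites. Non-junction reads are taken here as reads at the same splice sites without the back-splice, because the sources do not define them. Linear transcripts can give them, and so can other circles that span the site. They were deposited wherever a circRNA was listed. The circular share is the authors' fraction, which divides 2 times the junction reads by that number plus the non-junction reads. It compares reads at the same sites, so it needs no scaling by gene length. At the Akap7 circle of exons 2 to 7 it was 11.3%, 24.1%, 14.7% and 36.2% in library order, on 44 to 60 non-junction reads. At that of exons 2 to 5 it was 13.3%, 25.4%, 19.7% and 18.7%. Both lay above the median of the 102 circRNAs listed in all libraries, which was 9.42% to 11.7% per library, and ranked 29th and 35th of 102 by mean share.

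The leading Asph circle had shares of 7.07% and 6.39% in sham 1 and sham 2, and 5.44% and 4.25% in I/R 3 and I/R 4, 73rd of 102. At the minor Asph circle of exons 16 to 20 it was 12.8% and 7.14% in the sham libraries, on 68 and 52 non-junction reads. The 3 recurrent Ryr2 circles ranked 95th, 98th and 99th of 102, with means over the 4 libraries of 1.07%, 0.86% and 0.68%, on 629 to 1375 non-junction reads each. At the Cacna1c circle the share was 1.46% in sham 1, 0.84% in sham 2 and 0.51% in I/R 4, on 948, 939 and 778 non-junction reads. Of the 8 circles with at least 10 reads, the lowest share was at Atp2a2 exons 4 to 5, with 0.20% in sham 1, 0.072% in I/R 3 and 0.045% in I/R 4, on 5907, 5534 and 8866 non-junction reads. Exon 5 of Atp2a2 alone had a share of 0.085% in sham 1. Neither of the Cacna1c and Atp2a2 circles with at least 10 reads was listed in every library, so no non-junction count exists where they were at 0, and their shares are known only where the circle was seen. From highest to lowest the order of these 8 circles was thus Akap7, Asph, then Ryr2 and Cacna1c, whose ranges overlap, and Atp2a2. Among them the ranges of Akap7, Asph and Atp2a2 did not touch each other or those of Ryr2 and Cacna1c. Minor circles broke this order: the intronic Cacna1c circRNA had a share of 6.32% in sham 2, within the range of the leading Asph circle. The Asph circle with the exon of a shorter model had 1.62% in I/R 3, within the range of Ryr2.

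**Figure D4:**
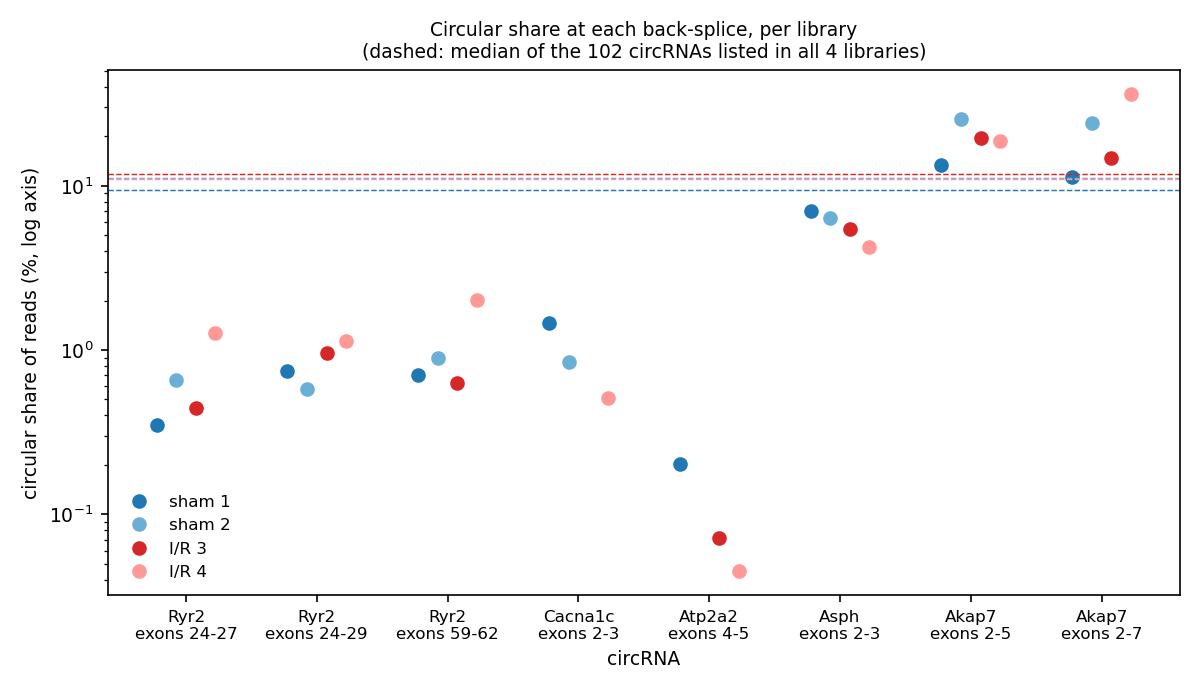
Circular share of reads in percent (log axis) at 8 circRNAs of the 5 hosts, 1 point per library, with dashed lines at each library's median over the 102 circRNAs listed in all 4. Akap7 lies between 11.3% and 36.2%, Asph between 4.25% and 7.07%, Ryr2 and Cacna1c near 1%, and Atp2a2 at 0.20% or less.

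Non-junction reads were then compared between I/R and sham at the 102 circRNAs, which include 6 members. Of the 102, 9 (8.82%) passed and 27 (26.5%) had an unadjusted p under 0.05 (edgeR); of the 6 members, 0 and 1. The 9 calls became 2 without sham 2 and 1 without I/R 4. The member was the Asph circle, read 473 and 498 times in the sham pair and 556 and 631 times in the I/R pair at its non-junction sites. Both I/R values were higher, and the log2 fold change was 0.37 (SE 0.18, unadjusted p = 0.0436, edgeR adjusted p = 0.181). At the Akap7 circle of exons 2 to 7 the counts were 47, 44, 58 and 60 (log2 fold change 0.46, SE 0.23, edgeR adjusted p = 0.181), again with both I/R values higher. At Ryr2 exons 24 to 29 they were 1325 and 1375 in the sham pair and 1039 and 1213 after I/R, both lower (log2 fold change -0.18, SE 0.20, edgeR adjusted p = 0.592). The other Ryr2 circles were fitted at -0.16 and -0.12, and the shorter Akap7 circle at 0.24. The fitted change was above 0 in 3 of 6 members, beside 48% of the 102. On the scaled values both I/R libraries were higher at 3 of 6 (27.5% of the 102) and lower at 2 of 6 (31.4%). The lower members both open at Ryr2 exon 24, and the higher ones include both Akap7 circles from exon 2. Reads at a shared site may count at both circles, so these are not separate observations. The shorter Akap7 circle, with unscaled counts of 52, 47, 49 and 61, was higher only after scaling. Without TMM factors the median over the 102 moved from -0.036 to -0.233, the calls from 4 higher and 5 lower to 0 and 4, and the values of Asph and the longer Akap7 circle to 0.17 and 0.26.

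Setting back-splice reads against non-junction reads of the same libraries asks whether the circle moved apart from its surroundings. Of the 102, 1 passed (0.98%), the Slc8a1 circle of the sodium-calcium exchanger (log2 ratio change 1.65, edgeR adjusted p = 0.0484), and 0 of the 6 members did. The Slc8a1 call was lost when any library was left out. None of the 6 had an unadjusted p under 0.05 (3.92% of the 102), and 4 of 6 were fitted above 0 (52.9%). The Asph circle, with fewer junction and more non-junction reads in I/R, had a log2 ratio change of -0.62 (SE 0.32, unadjusted p = 0.0894, edgeR adjusted p = 0.797). Its shares averaged 6.73 ± 0.48% in sham against 4.85 ± 0.84% after I/R (SD, n = 2), both I/R libraries lower, and its value stayed between -0.77 and -0.45 with each library left out in turn. Ryr2 exons 24 to 29 went the other way, 0.66 ± 0.12% against 1.05 ± 0.13% (SD, n = 2), both I/R libraries higher (log2 ratio change 0.57, SE 0.52, edgeR adjusted p = 0.819). Over the 102, both I/R shares were higher at 30.4% and lower at 16.7%. At the other 4 members the groups overlapped, with log2 ratio changes from -0.14 to 0.71. Of these 4, the longer Akap7 circle and both remaining Ryr2 circles were fitted below 0 without I/R 4.

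Of 83 genes of calcium handling and excitation-contraction coupling, which include the 5 hosts, 11 had a listed circRNA and 6 could be tested as hosts. None passed in either direction, 2 were fitted above 0 and 4 below, with a median of -0.12, beside 75 and 79 of all 154 hosts and a median of -0.05. The sixth tested host was Slc8a1, with 23, 47, 40 and 71 reads (log2 fold change 0.66, SE 0.57, edgeR adjusted p = 0.922). Akap6, which anchors protein kinase A at the nuclear envelope, had 7 reads and the dystrophin gene Dmd 5. Camk2d, Akap13 and Ank2 had 2 reads each. The reticulum genes Pln, Casq2, Trdn and Jph2 and the calcium channel subunit gene Cacnb2 were at 0 in every library.

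Hosts were also ranked by how alike their reads were spread over the 4 libraries, as 0.5 times the summed absolute difference between CPM profiles scaled to a sum of 1. The profile nearest to that of Akap7 was Slc8a1 (distance 0.032, beside a median of 0.257 over the tested hosts), followed by the kinase gene Snrk (0.066) and the phosphatase gene Ptprm (0.070). Nearest to Ryr2 were Lrch3 (0.039), Esco1 (0.041) and Erbin (0.065), with a median of 0.224. Nearest to Asph were the Mediator gene Med13l (0.038), Erbin (0.042) and Ubap2 (0.049), with a median of 0.202. These distances describe 4 libraries and share their depth. Some of the hosts named had few reads in all, 12 at Ubap2, 15 at Esco1 and 16 at Ptprm, and the others 22 (Lrch3) to 181 (Slc8a1). At such counts a few reads would move the distance. Those named are also the smallest of all distances to tested hosts.

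In the authors' deposited table, 0 of the 19 circRNAs had an adjusted p under 0.05 (1.05% of the 1046) and 1 had an unadjusted p under 0.05 (8.7%). In the authors' deposited table it was Asph exons 16 to 20, with a log2 fold change of -2.89 (p = 0.00265, adjusted p = 0.113). It rests on the 5 and 2 reads of the sham libraries. The authors' deposited table gave -2.39 for the exonic Cacna1c circle (adjusted p = 0.524), 0.90 for the longer Akap7 circle (adjusted p = 0.524) and 0.51 for Atp2a2 exons 4 to 5 (adjusted p = 0.743).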

How the data were processed

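Per the file headers, the authors deposited for each library the count of back-splice junction reads and of non-junction reads per circRNA, and a fraction made from both. The submitters' processing notes name BWA 0.7.5a-r405, HTSeq 0.9.1 and build mm9 without their roles. What called the circRNAs was not stated in the sources available for this work. The merged matrix of counts differed from these files in 0 cells. The authors' deposited table holds log2 fold changes, p-values and score columns. Its contrast is not stated.

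Counts were tested with edgeR 4.0.16 (R 4.3.3), glmQLFTest, I/R against sham, TMM factors, at least 10 reads over the 4 libraries in at least 2 of them, and Benjamini-Hochberg adjustment over all circRNAs, or all hosts, at 0.05. SEs come from the F statistic and can lie below counting error. Non-junction reads, and their contrast with junction reads (an interaction with a term per library), were tested at circRNAs listed in all 4 libraries. Alternatives used DESeq2 1.42.0 and limma 3.58.1. Scripts were tested on simulated data with large changes and, for the interaction, far more junction reads than in these libraries. That checks the code and not the power at the counts seen here. Members and gene lists were chosen with earlier results of these data known. Circles with at least 10 reads are given read by read. Of the calcium list every tested host is named, and for each host with at least 20 reads the 3 hosts nearest in profile. Per-sample columns left unmapped numbered 0.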

Additional observations from a re-analysis of the deposited data

How the results depend on the processing

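No paired analysis was possible because the groups share no replicate number. Of 197 values of the 5 hosts and their circRNAs recomputed under the alternatives, 183 kept direction and side of the threshold and 14 changed sign. Their smallest adjusted p was 0.0993. In limma-voom Atp2a2 went to 0.62 (exons 4 to 5) and 0.23 (host). The shorter Akap7 circle went to -0.002 without TMM factors and Ryr2 as a host to 0.014 by whole host label. Leaving out each library, ranges were -0.043 to 1.71 (longer Akap7 circle), -0.27 to 0.57 (shorter), -0.52 to 0.36 (Ryr2 host) and -0.26 to 0.066 (Ryr2 exons 59 to 62, non-junction). For circular against non-junction reads they were -0.48 to 1.38 and -0.56 to 0.45 (longer and shorter Akap7), -0.46 to 1.30 (Ryr2 exons 59 to 62) and -0.33 to 1.26 (exons 24 to 27). Without a filter there were 3 circRNA calls and 1 host call, none of these 5 hosts; leaving out a library gave 0 to 1 of each. Non-junction calls were 4 without TMM factors, 2 in DESeq2 and 1 to 8 without a library; circular against non-junction calls were 0 in limma-voom and 0 to 0 without a library, the cause not tested. The calcium list's median was 0.29 with at least 20 reads (fewer hosts tested) and -0.30 to 0.18 without a library. The share of reads in the 5 hosts (I/R minus sham, -0.52 percentage points) was -0.99 to -0.05 without a library, a setting chosen after seeing the data. Without TMM factors the median over all circRNAs moved from 0.060 to -0.044 and over all hosts from -0.053 to -0.161.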
